A study of Mus musculus with 4 samples.

Results

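LSK cells (lineage marker negative, Sca-1+ and c-Kit+) from bone marrow that carried TET2KD, JAK2V617F or both were set against WT LSK cells, to describe what the 3 mutant arrays had in common and what marked the WT array. All 4 arrays of the series entered, 3 mutant and 1 WT. A probe entered when it was well above background in WT or in all 3 mutants, which took 29903 of 55681 probes; they read 13559 of the 22620 named genes on the array. The rule used detection only, not the size or direction of a difference.

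TET2KD cells came from TET2 knock-down mice, JAK2V617F cells from transgenic mice, and Double mutant cells carried both lesions. In every group, WT included, E14.5 fetal liver cells on a C57B6 background had been transplanted into lethally irradiated mice, and the LSK cells were sorted from the recipients' marrow. Collection was at 10 weeks for TET2KD, 16 weeks for JAK2V617F, 13 weeks for Double mutant and 16 weeks for WT. The design text gives 5 mice per genotype, and whether their cells were pooled is not given in the sources used here. The promoter of the transgene and the means of the knock-down are likewise not given. Total RNA was amplified as cDNA and hybridised to 1-colour Agilent arrays.

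The LSK gate selects cells without lineage markers that carry Sca-1 (encoded by Ly6a) and the stem cell factor receptor c-Kit (Kit). It holds the hematopoietic stem cells, which renew themselves, and the multipotent progenitors, which begin to express myeloid or lymphoid genes. TET2 oxidises 5-methylcytosine, a step in the loss of DNA methylation, and its loss is frequent in myeloid disease. JAK2 is the kinase under cytokine receptors of blood cells, and the V617F form, found in myeloproliferative neoplasms, signals without its ligand.

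Each genotype had 1 array, so no value below has a replicate check, and "higher" and "lower" describe these arrays. The 3 differences from WT share the single WT array: whatever set that array apart from other WT samples would appear as a difference shared by all 3 mutants, and the lesions and that array cannot be told apart. Fewer cells of a type and less RNA per cell also cannot be told apart in these sorted bulk samples. Levels are given as scaled log2 signal, where 0 is the array's own 75th percentile of signal, and levels of different probes are not compared. A gene or probe is called shared when each of the 3 mutants differed at least 2-fold from WT on the same side. Where a probe did not clear background on an array, the array's lowest signal well above background was used, or the probe's own if higher. The fold is then given as "at least", a bound that holds for the background correction used here.

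The arrays differed from each other about as often as the mutants differed from WT. Over the 22096 probes above background on all 4 arrays, 26.4% of probes differed at least 2-fold between TET2KD and WT, 24.7% between JAK2V617F and WT and 24.8% between Double mutant and WT. Between pairs of mutants the share was 25.9% for TET2KD against JAK2V617F, 24.6% for TET2KD against Double mutant and 18.3% for JAK2V617F against Double mutant. JAK2V617F and Double mutant were the closest pair, and TET2KD differed from each of them about as often as from WT. Repeated spots of 1 probe within an array had an SD of 0.136 in TET2KD, 0.144 in JAK2V617F, 0.138 in Double mutant and 0.152 in WT on the log2 scale, a spread that leaves out sorting, amplification and animals.

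Shared differences were counted over all 3 mutants at once. Of the 29903 probes, 1298 (4.34%) were shared higher and 2269 (7.59%) shared lower than WT. The rule admits a probe detected in WT alone but not one detected in only 1 or 2 mutants, which favours lower calls: 1566 probes were above background in WT only and 663 of these were shared lower, while 1324 were above background in the 3 mutants only and 463 of these were shared higher. Among the 22096 probes above background on all 4 arrays the counts were nearly even, with 835 (3.78%) shared higher and 852 (3.86%) shared lower. Over genes, 548 of 13559 (4.04%) were shared higher and 971 (7.16%) shared lower, the shares against which every count of a gene list below is to be read. Where every tested probe of a gene was above background on all 4 arrays, 325 of 9465 genes (3.43%) were shared higher and 342 (3.61%) shared lower. Probes near the limit were many: 425 had their smallest of the 3 log2 differences within 0.1 above the 2-fold limit, the nearest at 1.0004, and 524 lay within 0.1 below it, the nearest at 0.99987.

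A limma fit with 1 term for carrying any lesion called 0 of 29903 probes at an adjusted p of 0.05 (0.0%), with a smallest adjusted p of 0.175. Without adjustment, 3315 probes (11.1%) had a limma p under 0.05, of which 1013 (3.39%) lay above WT and 2302 (7.7%) below. In this fit the spread comes from 3 different genotypes and WT is assumed to vary as they do. Where all 3 mutants were set to the floor, the spread was that of the floors, not of measured signal. Sertad3, Tert, Pi15 and Wdr78 were such cases among the probes with the smallest limma p. Over probes above background on all 4 arrays, unadjusted calls were nearly even above and below WT, and the smallest adjusted p was higher. The skew to lower and the smallest adjusted p thus depended on which probes entered. An exact permutation test of 1 array against 3 cannot go below p = 0.25. No difference below therefore passed a test, and the genes named by size had limma adjusted p between 0.175 and 0.577 over their probes.

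Sequences of probes show how far a shared difference of a gene rests on 1 stretch of its transcript. The first 30 bases of each 60-base probe are printed for Mad2l1, whose probes pointed the same way, for both probes of F13a1, and for the upstream probe of Cd79a, with the last 30 bases of its downstream probe. Capitals mark AATAAA, the letters of the polyadenylation signal, searched for in these stretches on the printed strand, which is each gene's own strand. Coordinates of the whole probes follow mm9, per the file headers.
Mad2l1, chr6:66490067-66490126, plus strand: tgtgtgttattgttccatttcttgggttct
Mad2l1, chr6:66490355-66490414, plus strand: agagaggcagggaggacagctttactattc
Mad2l1, chr6:66490836-66490895, plus strand: cgaaatgcagcagtaagacacatttctctt
F13a1, chr13:36959214-36959273, minus strand: ctggtttacttctaagtcattgataggttc
F13a1, chr13:37063829-37063888, minus strand: ctgaatgacattggagtgatattttatggg
Cd79a, chr7:25684357-25684614, plus strand: tagaaaacaacatattaaaacgctcctgtg
Cd79a, chr7:25686823-25686882, plus strand: gtgatAATAAAtccttcccaaagcaaaaaa

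Probes that lie close together on a gene mostly lay on the same side of WT, while for probes far apart the side was mixed. For each gene with several tested probes, the brightest was set against another of the same gene. In 321 genes whose probes lay under 100 bases apart, the mean log2 difference of the mutants from WT had a Spearman correlation of 0.771 between the probes. In 1858 genes whose probes lay at least 500 bases apart, it was 0.0487. Of 8 near pairs whose brightest probe was shared higher, the other lay on the same side in 7 and was itself shared higher in 3. Of 10 near pairs shared lower, the other lay on the same side in 10 and was shared lower in 6. Both correlations are across genes, not replicates, and the probes share the 4 arrays. Of 74 distant pairs whose brightest probe was shared higher, the other probe lay on the same side by its mean in 35 and was itself shared higher in 5, and it was shared lower in 5. Of 84 whose brightest probe was shared lower, the other lay on the same side in 39, was shared lower in 4 and shared higher in 5. Most tested genes, 9939, had 1 tested probe, so a gene's value below describes that stretch of its transcript.

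**Figure D1:**
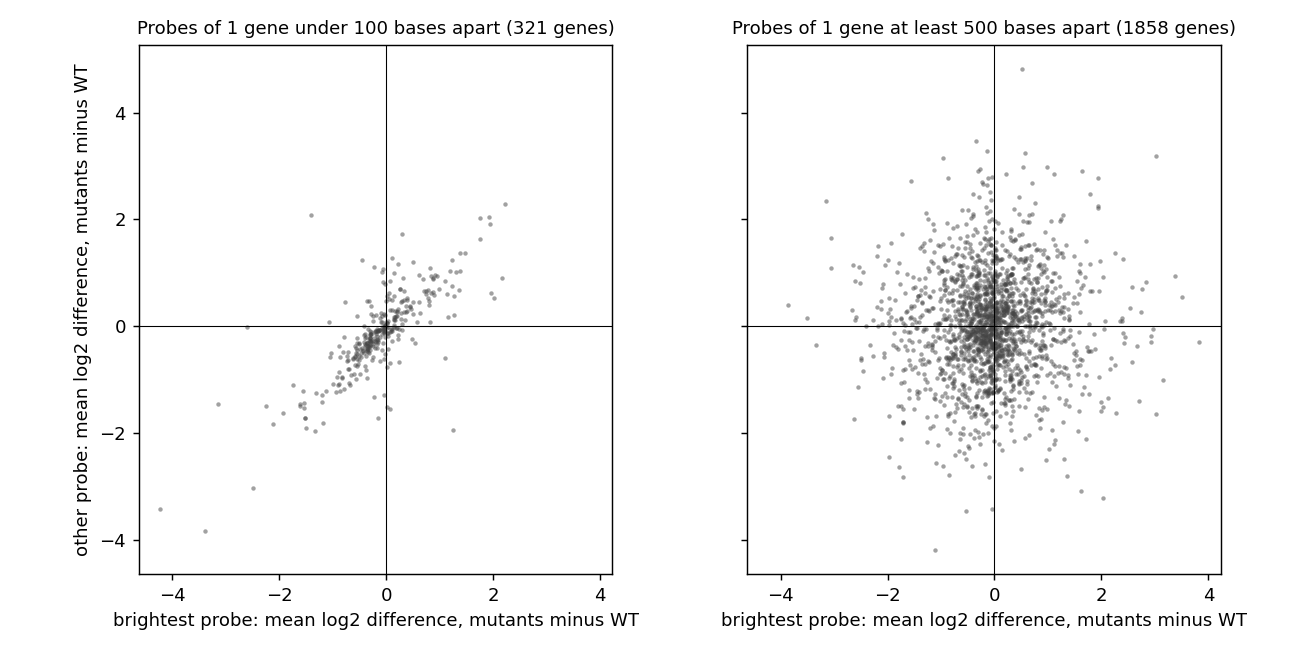
Mean log2 difference of the 3 mutants from WT for the brightest probe of a gene (horizontal axis) and another probe of the same gene (vertical axis), 1 point per gene; left, probes under 100 bases apart (321 genes), right, probes at least 500 bases apart (1858 genes). The left points follow the diagonal (Spearman 0.771), while the right points form a round cloud (0.0487).

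The targeted genes were read first. Tet2 was read by 3 probes. On the probe at chr3:133126905-133126964 (mm9) the scaled log2 signal was -0.72 in TET2KD, 0.70 in JAK2V617F and 0.43 in Double mutant, against 1.16 in WT. On the probe at chr3:133126751-133126810 it was 1.23 in TET2KD, 2.14 in JAK2V617F and 1.36 in Double mutant, against 2.06 in WT. TET2KD was thus the lowest array on both, and Double mutant lay below WT on both. The probe at chr3:133176421-133176479 was above background in Double mutant only and did not enter. Jak2, read by 1 probe at chr19:29387487-29387546, had 0.24 in TET2KD, 0.04 in JAK2V617F and 0.18 in Double mutant, against 0.10 in WT. Whether the transgene is read by it is unknown, and the 4 arrays lay close together.

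The WT array showed the genes of the sorted population. A probe of 10 of the 11 genes of the gate and the SLAM surface markers was above background in WT, the exception being Slamf1, and the same number was detected on each mutant array. Of 43 stem cell genes, 39 were detected in WT. WT also detected part of every list of mature cells: 16 of 22 neutrophil genes, 12 of 24 erythroid genes on the array, 12 of 22 B and plasma cell genes, 14 of 25 T and NK cell genes and 11 of 19 genes of mast cells, basophils and eosinophils.

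Ly6a was higher than WT on all 3 mutant arrays and Kit was lower. Ly6a had 3.42 in TET2KD, 3.32 in JAK2V617F and 2.71 in Double mutant, against 2.13 in WT. Kit had 3.82, 2.93 and 2.37 in the same order of mutants, against 4.19 in WT, so that Double mutant lay 3.52-fold below WT. Since cells were gated on both proteins, these RNA levels describe cells inside the gate. Procr, which encodes the endothelial protein C receptor carried by long-term stem cells, had 1.14 in TET2KD, 1.5 in JAK2V617F and 1.39 in Double mutant, against 2.52 in WT. It was the only shared difference among the 10 tested genes of this list. Cd34 and Cd27 were lower than WT on all 3 arrays by less than 2-fold, while Flt3, Cd48 and Thy1 lay on both sides of WT.

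Stem cell genes were lower than WT more often than higher on all 3 arrays, more so in the arrays with JAK2V617F. Of 40 tested genes, 23 lay below WT in all 3 mutants and 7 above, against 34.1% below and 22.7% above over all tested genes. Shared calls were 6 of 40 lower and 0 higher, against 7.16% lower and 4.04% higher over all genes. Among the 29 members above background on all 4 arrays, 2 were shared lower, against 3.61% of all such genes, so 4 of the 6 had a probe that was dim on some mutant array. The list's median log2 difference was -0.13 in TET2KD, -0.67 in JAK2V617F and -0.81 in Double mutant, beside medians of -0.12, -0.13 and -0.13 over all genes, so that in TET2KD the list sat at the level of all genes.

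Angpt1, the ligand of the Tie2 receptor in the stem cell niche, had 3.51 in TET2KD, 2.87 in JAK2V617F and 1.23 in Double mutant, against 4.74 in WT. It was 2.35-fold, 3.65-fold and 11.4-fold below WT in these mutants. Aldh1a1, a retinaldehyde dehydrogenase, had 0.21, 1.44 and -1.56 in TET2KD, JAK2V617F and Double mutant, against 2.48 in WT. Sult1a1, a sulfotransferase, had -2.78 in both TET2KD and JAK2V617F and -2.65 in Double mutant, against -0.43 in WT, and Trim47 had -2.11, -2.98 and -2.64 in TET2KD, JAK2V617F and Double mutant, against -0.08 in WT. On both genes WT stood clear of the mutants on each of 2 overlapping or neighbouring probes. Pdzk1ip1 was not well above background in any mutant and was at least 2.33-fold below WT in each.

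Bmi1, a Polycomb protein needed for stem cell self-renewal, had a mean over 2 probes of -1.60 in TET2KD, -1.14 in JAK2V617F and -1.39 in Double mutant, against -0.01 in WT. Its probes differed: at chr2:18607531-18607590 it was 1.80 log2 units or more below WT in every mutant, while at chr2:18607987-18608046 Double mutant lay 0.49 above WT. Other factors of stem cells followed a graded order without reaching 2-fold in TET2KD. Meis1 had 2.45 in TET2KD, 2.14 in JAK2V617F and 0.19 in Double mutant, against 3.17 in WT. Txnip, an inhibitor of thioredoxin, had 2.36, 0.30 and -0.52, against 2.92 in WT. Hlf, a transcription factor of stem cells, had 3.89, 2.81 and 2.71, against 4.31 in WT. In the opposite direction, Vwf, a platelet protein also found in platelet-primed stem cells, had 1.48 in TET2KD, -0.22 in JAK2V617F and -0.95 in Double mutant, against -1.82 in WT.

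The list of granulocyte and monocyte progenitor genes had a median at least 0.25 above WT in all 3 mutants. Besides the 4 sex-linked genes it was the only list that far from 0 on the same side. Measured from the medians of all genes, the inflammatory, the heat shock and the endothelial and stromal lists were also at least 0.25 higher. Single genes were mixed: 13 of the 23 tested lay above WT in all 3 mutants and 3 below, against 22.7% and 34.1% of all genes. Of 23 tested genes, 7 were shared higher and 0 shared lower, against 4.04% and 7.16% of all genes. The median log2 difference was 0.78 in TET2KD, 0.54 in JAK2V617F and 1.39 in Double mutant. Over the 19 members above background on all 4 arrays, 5 were shared higher, against 3.43% of all such genes. The 7 shared genes had limma adjusted p between 0.175 and 0.505.

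Elane, neutrophil elastase of the primary granules, had 3.34 in TET2KD, 2.96 in JAK2V617F and 3.21 in Double mutant, against 0.70 in WT. The 3 mutants lay close together, 4.80-fold to 6.27-fold above WT. Ctsg, cathepsin G of the same granules, had 4.50, 5.91 and 6.22 in TET2KD, JAK2V617F and Double mutant, against 2.62 in WT. Prtn3, proteinase 3, had 2.44, 3.65 and 3.67 in these mutants, against 1.11 in WT. Both were lowest in WT and next lowest in TET2KD. Mpo, myeloperoxidase, had a mean over 2 probes of 4.88 in TET2KD, 5.68 in JAK2V617F and 5.87 in Double mutant, against 3.88 in WT, and missed the 2-fold limit in TET2KD at a difference of 0.999902. Of its probes, that at chr11:87615121-87615180 was shared higher and that at chr11:87617840-87617899 lay 0.51 above WT in TET2KD.

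Cebpa, the transcription factor that commits progenitors to the granulocyte and monocyte lineage, had 2.24 in TET2KD, 3.82 in JAK2V617F and 2.50 in Double mutant, against 1.11 in WT. Igsf6, a surface protein of myeloid cells, had 1.15, 1.27 and 2.49, against -1.18 in WT. F13a1, the A subunit of coagulation factor XIII and a gene of monocyte progenitors, had 0.74 in TET2KD, 1.98 in JAK2V617F and 3.47 in Double mutant on the probe at chr13:36959214-36959273 and did not clear the background in WT, which put these mutants at least 13.5-fold, 31.8-fold and 89.5-fold above it. Its other probe was above background in JAK2V617F and Double mutant but in neither TET2KD nor WT. Fcgr2b, an inhibitory Fc receptor, was higher by at least 17.8-fold in TET2KD, 2.66-fold in JAK2V617F and 4.83-fold in Double mutant. Irf8, the factor of monocyte and dendritic fate, had 0.49, 1.53 and 2.59 in the same mutants, against -0.39 in WT, and stayed under 2-fold in TET2KD. Not every member followed: Csf3r, the G-CSF receptor, had 8.48 in TET2KD, 8.20 in JAK2V617F and 8.14 in Double mutant, against 8.29 in WT, and Clec12a was at least 1.85-fold lower in every mutant.

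**Figure D2:**
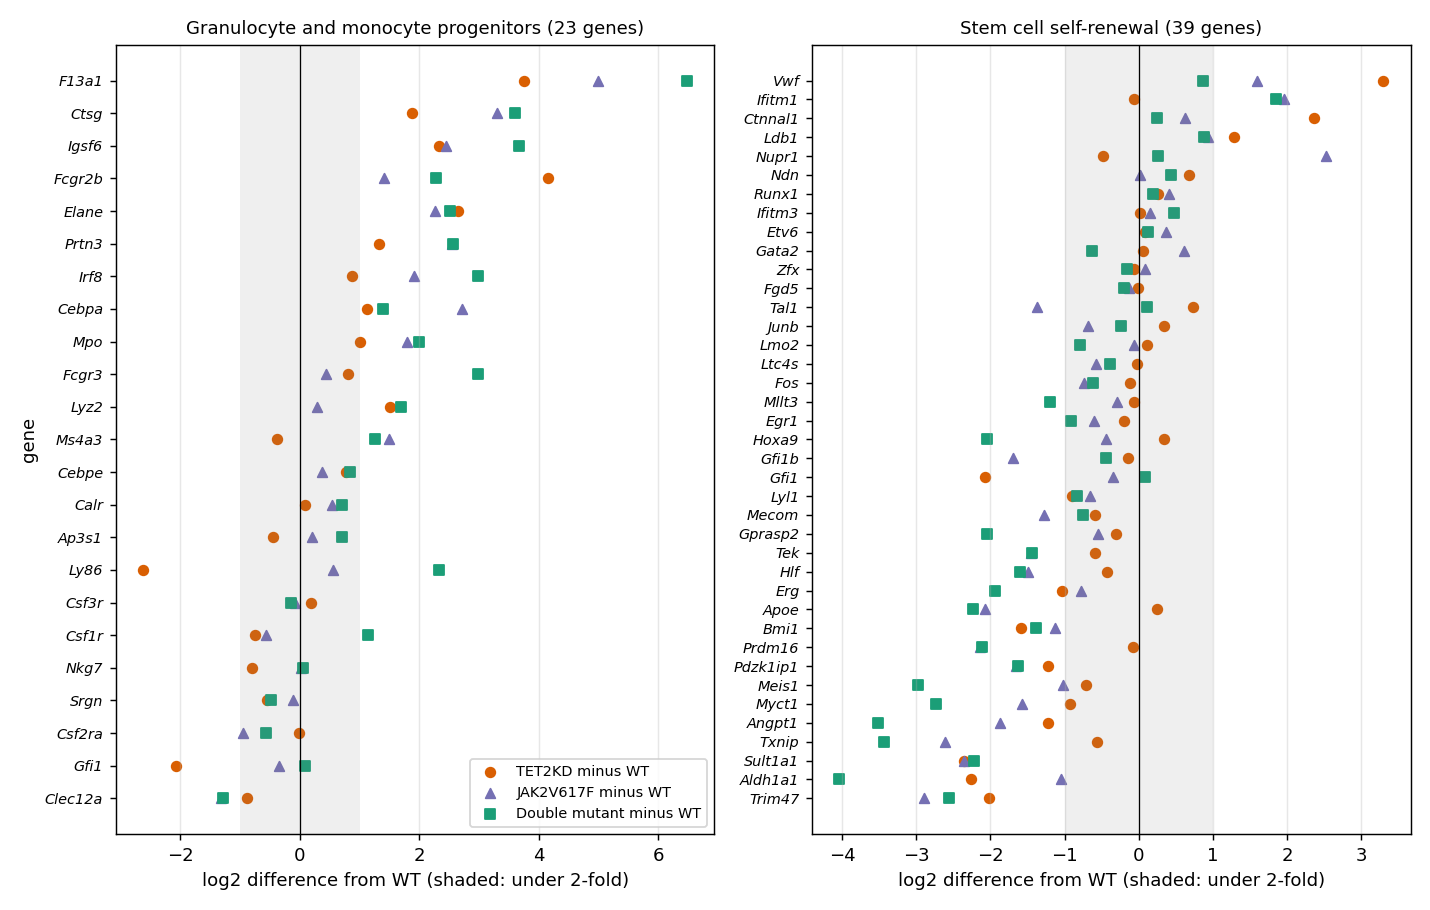
Log2 difference of each mutant array from WT (horizontal axis) for the tested genes of the granulocyte and monocyte progenitor list (left, 23 genes) and the stem cell list (right, 39 of 40 genes), with the zone under 2-fold shaded. On the left 7 genes have all 3 points right of the zone and 0 have them left of it; on the right 6 genes have all 3 points left of it and 0 right.

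Mature myeloid genes did not move with the progenitor genes on all arrays. The neutrophil list of 17 tested genes had a median log2 difference of 0.95 in TET2KD, -0.81 in JAK2V617F and 0.46 in Double mutant, with 0 shared higher and 3 shared lower, against 4.04% higher and 7.16% lower over all genes. Above background on all 4 arrays, 1 of 11 was shared lower. The 3 were Ltb4r1, the leukotriene B4 receptor, Cxcr2, the receptor of neutrophil chemokines, and the decoy receptor Il1r2. Its summed signal, in units of each array's 75th percentile, was 109 in TET2KD, 32.1 in JAK2V617F and 76.2 in Double mutant, against 78.7 in WT, while that of the progenitor list was 500, 546 and 570 in the mutants, against 420 in WT. Monocyte, macrophage and dendritic cell genes had medians of 0.59, -0.47 and 0.30 in TET2KD, JAK2V617F and Double mutant, and 1 of 15 was shared higher, Cd14. The part of mature cells in the progenitor result was not tested.

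Genes of eosinophil granules were lower than WT on all 3 mutant arrays. Over 6 genes (Epx, Prg2, Prg3, Ear1, Ear2 and Ear6) the folds ran from 1.16 to 2.36 in TET2KD, 4.73 to 22.7 in JAK2V617F and 3.45 to 8.47 in Double mutant. Epx, eosinophil peroxidase, had 4.46 in TET2KD, 0.50 in JAK2V617F and 1.59 in Double mutant, against 4.67 in WT. Prg2, major basic protein, had 7.16, 4.50 and 5.61, against 7.40 in WT, and Prg3, its homolog, had 3.29, 1.56 and 1.80, against 3.80 in WT. In each of them JAK2V617F was lowest and TET2KD nearest to WT. Ear1 and Ear2, ribonucleases of eosinophils, were shared lower, the only 2 such genes of the 11 tested on the list that covers eosinophils, basophils and mast cells, against 7.16% of all genes. Ear1 had 4.40 in TET2KD, 1.48 in JAK2V617F and 2.95 in Double mutant, against 5.64 in WT, and Ear2 had 3.0, -0.27 and 1.19, against 4.23 in WT. Ear genes are near-identical copies, and a probe may read more than 1 of them. The list's summed signal was 218 in TET2KD, 43.4 in JAK2V617F and 75.3 in Double mutant, against 294 in WT. Of mast cell genes, Tpsb2, a tryptase, had 1 probe 2.24-fold to 2.80-fold above WT and another 1.04-fold to 1.32-fold below it. Cpa3, a carboxypeptidase, had -0.12 in TET2KD, against -0.27 in WT, and was at least 7.71-fold lower in JAK2V617F and 7.59-fold lower in Double mutant.

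**Figure D3:**
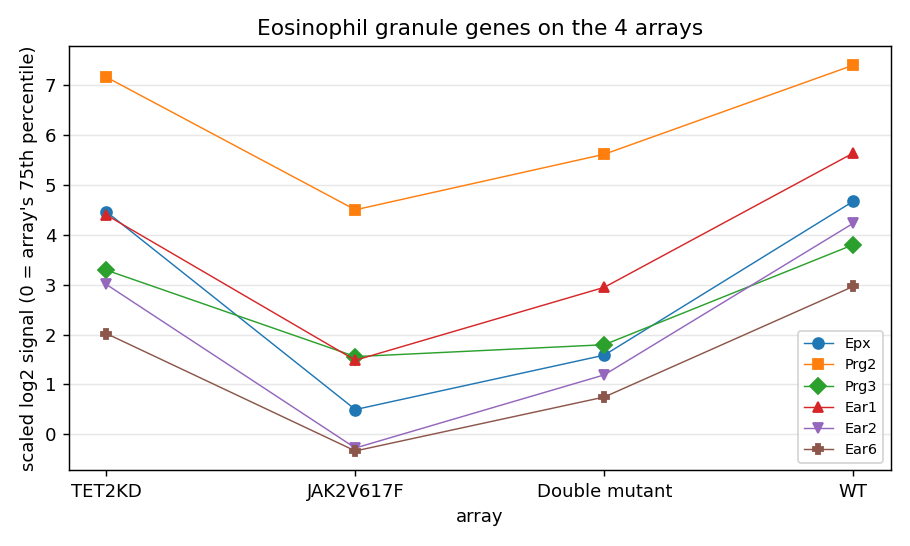
Scaled log2 signal (0 is the array's 75th percentile) of 6 eosinophil granule genes on the TET2KD, JAK2V617F, Double mutant and WT arrays; lines join the values of a gene. All 6 genes are highest in WT, next in TET2KD and lowest in JAK2V617F.

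Lymphoid genes included the widest lower difference among named genes above background on all 4 arrays. Cd79a, the signalling chain of the B cell receptor complex, had -0.93 in TET2KD, -1.14 in JAK2V617F and -1.98 in Double mutant on its upstream probe, against 4.04 in WT, that is 31.4-fold, 36.3-fold and 65.2-fold lower. Its downstream probe, which holds the AATAAA above, gave another order: it was not above background in TET2KD or WT, but had 0.23 in JAK2V617F and 0.18 in Double mutant, at least 9.44-fold and 9.14-fold above WT. It did not enter by the detection rule, so the call of Cd79a rests on 1 stretch that its other probe did not follow. Cd79b, the partner chain, had -1.54, -0.60 and -1.58 in TET2KD, JAK2V617F and Double mutant, against 0.69 in WT. Vpreb1, a surrogate light chain of B cell precursors, had -2.03 in JAK2V617F, 15.7-fold below its 1.95 in WT, and was at least 26.7-fold lower in TET2KD and at least 31.9-fold lower in Double mutant, where it was not well above background. The lists as a whole did not shift together, with B and plasma cell medians of 0.82, -0.29 and 0.37 and lymphoid priming medians of -0.07, -0.54 and -0.33 in TET2KD, JAK2V617F and Double mutant. Dntt, which adds bases at antigen receptor joints, had 5.96, 5.26 and 6.15 in these mutants, against 6.71 in WT. Among T and NK genes Gzmb was shared higher and Trat1 and Cd8b1 shared lower, of 16 tested.

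Sex-linked transcripts also set WT apart. Xist, the RNA of the inactive X chromosome, had 1.62 in TET2KD, 4.05 in JAK2V617F and -1.53 in Double mutant on its brighter probe (chrX:100662174-100662233), against 5.57 in WT, and its other probe was shared lower too. Ddx3y, on the Y chromosome, was not well above background in WT and was higher by at least 3.36-fold in TET2KD, 2.13-fold in JAK2V617F and 5.59-fold in Double mutant. Other genes of the Y chromosome went the other way. Eif2s3y, the only member above background on all 4 arrays, had -0.93 in TET2KD, -2.92 in JAK2V617F and -0.87 in Double mutant, against -0.69 in WT, and Uty, above background in WT and JAK2V617F only, lay below WT in all 3 mutants. Of the 4 tested sex-linked genes, 3 thus lay below WT in every mutant and 1 above. The labels used here give no sex for donors or recipients. Of probes above background on all 4 arrays, 4.46% of the shared lower ones, 3.59% of the shared higher ones and 3.49% of all lay on the X chromosome. The part of the animals' sex in the shared differences was not tested.

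**Figure D4:**
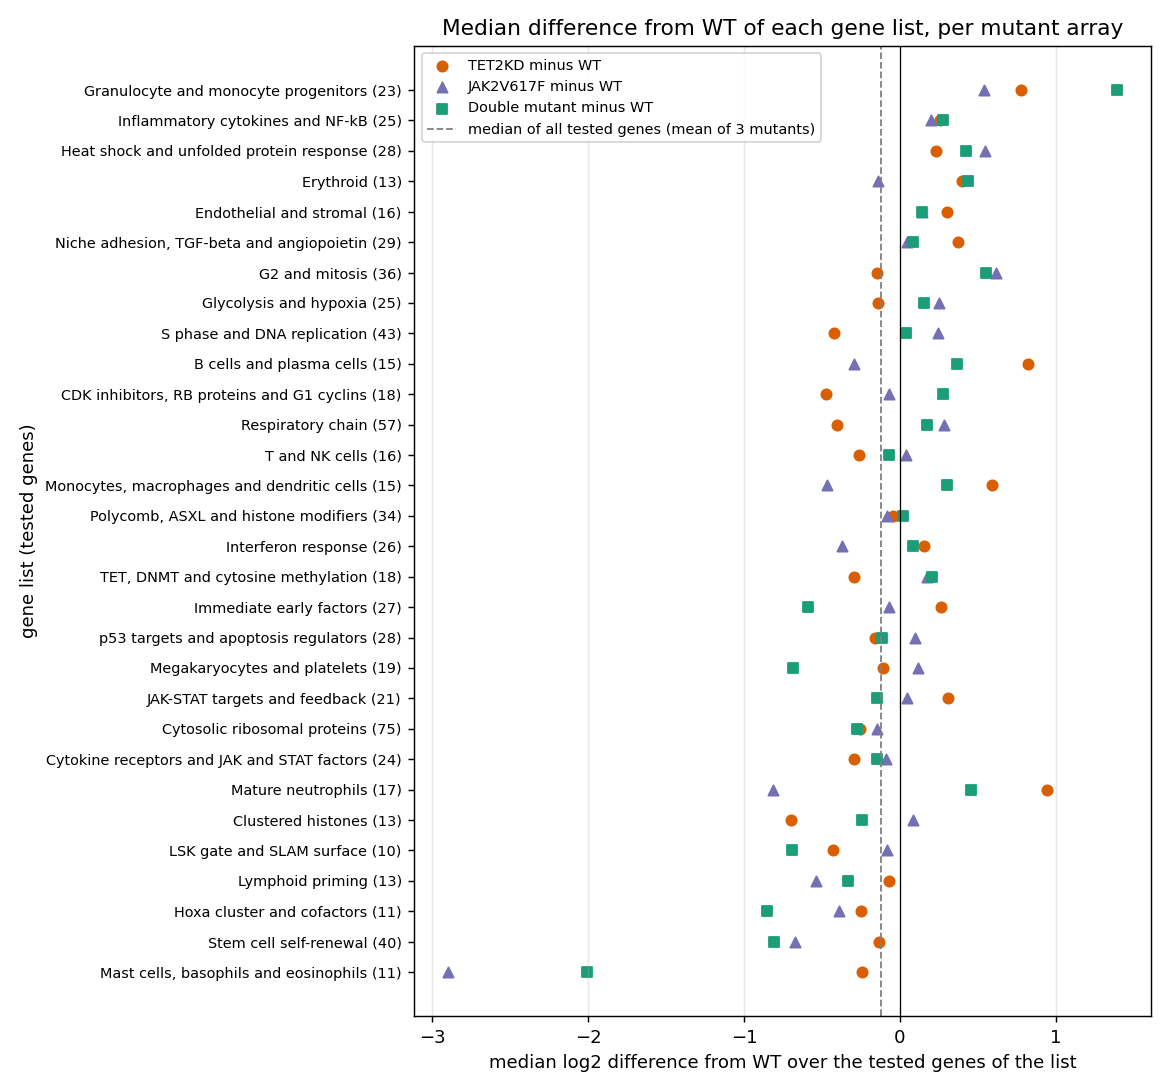
Median log2 difference from WT of each gene list for TET2KD, JAK2V617F and Double mutant, with the number of tested genes in parentheses and a dashed line at the median of all tested genes; the list of 4 sex-linked genes is left out. The granulocyte and monocyte progenitor list is the one whose 3 points all lie above 0.25, and the list of eosinophils, basophils and mast cells reaches the lowest median, -2.90 in JAK2V617F.

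Inflammatory genes gave shared calls in both directions. Of 25 tested genes, 5 were shared higher and 2 lower, against 4.04% and 7.16% of all genes, with medians of 0.26, 0.20 and 0.28 in TET2KD, JAK2V617F and Double mutant. Tnf, the tumour necrosis factor, had 0.91 in TET2KD, 0.86 in JAK2V617F and 1.52 in Double mutant and did not clear the background in WT, which puts these mutants at least 15.1-fold, 14.6-fold and 23.1-fold above it. Cxcl2, a neutrophil chemokine, had 0.81, 1.44 and 1.41, against -1.36 in WT. Nfkbie, an inhibitor of NF-kB, had 0.13, -0.02 and 0.10, against -1.22 in WT, and Birc3 and Icam1, targets of NF-kB, were also shared higher. Relb, an NF-kB subunit, averaged -0.04, -1.78 and 0.18 in TET2KD, JAK2V617F and Double mutant over 3 probes, against 1.26 in WT. Its probe at chr7:20203058-20203117, away from the other pair, had Double mutant 0.10 above WT. Tlr4, the lipopolysaccharide receptor, was not well above background in any mutant and at least 2.48-fold lower.

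Interferon genes gave 4 shared higher and 1 shared lower of 26, against 4.04% higher and 7.16% lower over all genes. Tap1, the peptide transporter of antigen presentation, had -1.08 in TET2KD, 1.51 in JAK2V617F and -0.88 in Double mutant, against -2.20 in WT, and Gbp3 and Ifi35 were likewise shared higher. Rsad2, an antiviral enzyme, ran the other way with 0.34, -0.66 and -1.05, against 2.34 in WT. Cmpk2, the kinase gene next to Rsad2 and also induced by interferon, was not in this list; neither of its 2 distant probes cleared the background in WT, and it was higher by at least 10.9-fold in TET2KD, 8.78-fold in JAK2V617F and 8.18-fold in Double mutant. The list median was 0.16 in TET2KD, -0.37 in JAK2V617F and 0.08 in Double mutant, so the list did not shift one way.

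JAK-STAT targets were shared higher in 3 of 21 genes and lower in 1, against 4.04% higher and 7.16% lower over all genes. Of the 17 members above background on all 4 arrays, 0 were shared higher and 1 lower. Socs2, a feedback inhibitor of cytokine receptors, had -1.75 in TET2KD, 2.08 in JAK2V617F and 1.46 in Double mutant on its tested probe and was not well above background in WT. The lower bound of the difference was 2.39-fold in TET2KD, 34.1-fold in JAK2V617F and 22.2-fold in Double mutant, so TET2KD shared the direction at a far lower level. Cdkn1a, the p21 inhibitor of the cell cycle, had -1.42, -0.46 and -0.26, against -2.81 in WT, as means over 2 tested probes. The call rests on the probe at chr17:29237377-29237436, with differences of at least 2.95, 4.38 and 4.55 log2 units in TET2KD, JAK2V617F and Double mutant, while at chr17:29235299-29235358 TET2KD lay below WT and the other differences were 0.31 and 0.55. Bcl2l1, which encodes the survival protein BCL-XL, averaged 1.06 in TET2KD, 0.05 in JAK2V617F and 1.20 in Double mutant, against -1.63 in WT, but its probe at chr2:152606404-152606463 had TET2KD 0.62 below WT. Spred2, an inhibitor of RAS-MAPK signalling, had -1.27, -1.18 and -0.49, against 1.80 in WT. Of 24 receptor, JAK and STAT genes, Tyk2, a JAK family kinase, was shared higher, and Il3ra, the interleukin-3 receptor, and Ghr, the growth hormone receptor, were shared lower. Il3ra had 0.77 in TET2KD, 0.17 in JAK2V617F and 0.87 in Double mutant, against 2.63 in WT.

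Genes of cytosine methylation gave 4 shared higher and 1 lower of 18, against 4.04% higher and 7.16% lower over all genes. Dnmt3a, the de novo DNA methyltransferase, had -0.84 in TET2KD, -0.18 in JAK2V617F and -0.55 in Double mutant, against -2.17 in WT. Idh1, which makes the 2-oxoglutarate that TET enzymes need, did not clear the background in WT and was higher by at least 6.61-fold in TET2KD, 6.02-fold in JAK2V617F and 4.78-fold in Double mutant. Gadd45a and Mbd3 were shared higher too. Tet1 averaged 0.15, -0.46 and 0.39 in TET2KD, JAK2V617F and Double mutant over 3 probes, against 1.41 in WT, and 1 of these probes had all 3 mutants above WT. Tet3 lay below WT in TET2KD and above it in the other two. Of 34 chromatin genes, Cbx2 and Asxl1 were shared higher and Bmi1 and Smarca2 lower. Asxl1, a Polycomb-associated factor mutated in myeloid disease, had 1.26, 1.12 and 0.81 in TET2KD, JAK2V617F and Double mutant, against -0.52 in WT.

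Chaperone genes of heat shock and of the endoplasmic reticulum lay above WT in all 3 mutants in 16 of 28 cases and below in 4, against 22.7% and 34.1% of all genes. Shared calls were 3 higher and 0 lower. The medians were 0.23, 0.55 and 0.43 in TET2KD, JAK2V617F and Double mutant. Dnajc3, an inhibitor of the stress kinase PERK, had 0.62 in TET2KD, 1.89 in JAK2V617F and 1.63 in Double mutant, against -1.28 in WT. Hsph1, a cytosolic chaperone, had 2.64, 2.82 and 3.15, against 1.09 in WT, and Sdf2l1, of the endoplasmic reticulum, had 4.87, 5.63 and 5.15, against 3.75 in WT. In all 3 genes WT was the lowest array, as a shared call requires. Hyou1, a chaperone of the endoplasmic reticulum and a hypoxia target, was among the 10 widest higher differences with 1.37, 1.26 and 0.92, against -2.32 in WT. Hspb1, a small heat shock protein, lay at least 0.95 log2 units below WT in every mutant.

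Ribosomal protein genes were slightly and broadly lower. Of 75 genes, 56 lay below WT in all 3 mutants and 3 above, against 34.1% and 22.7% of all genes, yet 0 were shared at 2-fold either way. The median log2 difference was -0.25 in TET2KD, -0.15 in JAK2V617F and -0.28 in Double mutant. Rpl22 had 3.60, 3.23 and 3.25 in these mutants, against 4.10 in WT, and Rps14 had 5.75, 5.51 and 5.45, against 6.13 in WT. Genes of the respiratory chain, in contrast, were lower in TET2KD (median -0.41) and higher in JAK2V617F (0.29) and Double mutant (0.17), with 0 of 57 shared either way.

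Cell cycle genes differed mostly between TET2KD and the other mutants. The list of G2 and mitosis had medians of -0.15 in TET2KD, 0.62 in JAK2V617F and 0.55 in Double mutant, with 3 of 36 shared higher and 1 lower, against 4.04% higher and 7.16% lower over all genes. Mad2l1, of the spindle checkpoint, averaged 0.40, 0.68 and 0.41 over the 3 probes above, against -1.62 in WT. All 3 of its probes had every mutant above WT, and those at chr6:66490067-66490126 and chr6:66490836-66490895 were shared higher. The probe at chr6:66490067-66490126 did not clear the background in WT. Dlgap5 and Pttg1, mitotic regulators, were shared higher, and Foxm1, a transcription factor of mitotic genes, was shared lower, with -1.01 in TET2KD, -0.35 in JAK2V617F and 0.15 in Double mutant, against 1.21 in WT. Of 43 genes of S phase, Chaf1a and Pola2 were shared higher and Pola1 and Chaf1b lower. Chaf1a and Chaf1b encode subunits of the same chromatin assembly factor, and Pola1 and Pola2 subunits of the same polymerase.

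Genes of cell death and of early response gave shared calls without a shift of their lists. Of 28 p53 targets and apoptosis regulators, 5 were shared higher and 2 lower, against 4.04% higher and 7.16% lower over all genes, with medians of -0.16 in TET2KD, 0.10 in JAK2V617F and -0.11 in Double mutant. Pmaip1, the death inducer NOXA, had -0.19 in TET2KD, 2.56 in JAK2V617F and 2.15 in Double mutant, against -1.94 in WT. Gadd45a, a stress protein that is also on the methylation list, had 2.72, 2.11 and 1.72, against 0.13 in WT. Both were lowest in WT, and TET2KD was the lowest mutant for Pmaip1 and the highest for Gadd45a. Polk, a polymerase that copies damaged DNA, had 0.57, -1.29 and -0.36, against 2.87 in WT. Of 27 immediate early factors, Egr2 and Ier3 were shared higher and 0 were shared lower. Ier3 had 2.93 in TET2KD, 3.28 in JAK2V617F and 2.81 in Double mutant, against 1.38 in WT.

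Erythroid and megakaryocyte genes did not shift together. Medians over 13 erythroid genes were 0.40 in TET2KD, -0.14 in JAK2V617F and 0.43 in Double mutant, and over 19 megakaryocyte and platelet genes -0.11, 0.12 and -0.69. Gata1, the transcription factor of both lineages, was shared lower, with -2.51 in TET2KD, 0.95 in JAK2V617F and 0.76 in Double mutant, against 2.18 in WT. Hbb-b2, an adult beta globin with a near-identical copy that the probe may also read, was shared higher, with -0.20, -0.66 and -1.23, against -2.40 in WT. The Hoxa genes and their cofactors had 0 of 11 shared either way, with medians of -0.25 in TET2KD, just short of the limit for a shift, -0.39 in JAK2V617F and -0.85 in Double mutant. Neither the 16 endothelial and stromal genes nor the 13 clustered histone genes held a shared call, and of 18 cell cycle inhibitors and G1 cyclins Cdkn1a alone was shared.

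Niche and adhesion genes gave 5 shared higher and 2 lower of 29, against 4.04% higher and 7.16% lower over all genes, so the lower count was near that of all genes. Vegfa, the vascular growth factor, averaged 2.71 in TET2KD, 2.26 in JAK2V617F and 1.97 in Double mutant, against -0.79 in WT, and both of its distant probes were shared higher. The probe at chr17:46154387-46154446 had 2.28, 1.63 and 0.41 in TET2KD, JAK2V617F and Double mutant, against -1.75 in WT. S1pr3, a receptor for sphingosine 1-phosphate, was not well above background in WT and was higher by at least 16.7-fold in TET2KD, 17.2-fold in JAK2V617F and 72.1-fold in Double mutant. Cd44, the hyaluronan receptor, averaged 2.57, 2.30 and 3.01 over 4 probes, against 1.23 in WT; 2 of the 4 were shared higher. Ski, an inhibitor of TGF-beta signalling, was higher and Smad3, which carries that signal, was lower. Smad3 had -1.04, -1.48 and -0.95, against 0.83 in WT. Of 25 genes of glycolysis and hypoxia, Vegfa and the phosphofructokinases Pfkl and Pfkp were shared higher and Ndrg1 was shared lower.

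Genes were also ranked by their smallest difference over the 3 mutants. Among genes above background on all 4 arrays the widest higher difference was Med13l, a Mediator subunit, with 3.67 in TET2KD, 2.41 in JAK2V617F and 2.29 in Double mutant, against -2.69 in WT. Akr1b10, an aldo-keto reductase, had 1.0, 2.25 and 1.99, against -2.26 in WT. Its other probe, at chr6:34346793-34346852, did not enter. It cleared the background only in JAK2V617F and Double mutant, at least 9.13-fold and 7.55-fold above WT. Hras, the RAS GTPase, had 0.04, 0.47 and 0.07, against -2.75 in WT, and its other probes cleared the background on no array. On the tested probes of Med13l, Akr1b10 and Hras the 3 mutants lay closer to one another than to WT. Their choice by a wide smallest difference largely fixed this. Cpsf3, the nuclease of mRNA 3' end formation, Pitpnb, Zmpste24, the lamin A protease, Vps37b and Arl4c completed the 10, with folds between 6.72 and 15.9.

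On the lower side Bcas3os2, an antisense transcript, had -1.51 in TET2KD, -2.00 in JAK2V617F and -0.55 in Double mutant, against 3.17 in WT. Bbs10, a chaperonin-like protein of cilia, had -2.43, -1.55 and -1.87, against 1.89 in WT. Its other probe, at chr10:110738166-110738225, did not enter and ran the opposite way: it was not well above background in WT or JAK2V617F, and TET2KD and Double mutant lay at least 4.82-fold and 6.99-fold above WT. Ets1, a transcription factor of lymphoid cells, had -1.35, -2.38 and -1.99, against 1.59 in WT. Mapk1ip1, Zbtb22, Fam234a, Sclt1, C7 and Zfp599 were 7.20-fold to 18.0-fold lower.

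**Figure D5:**
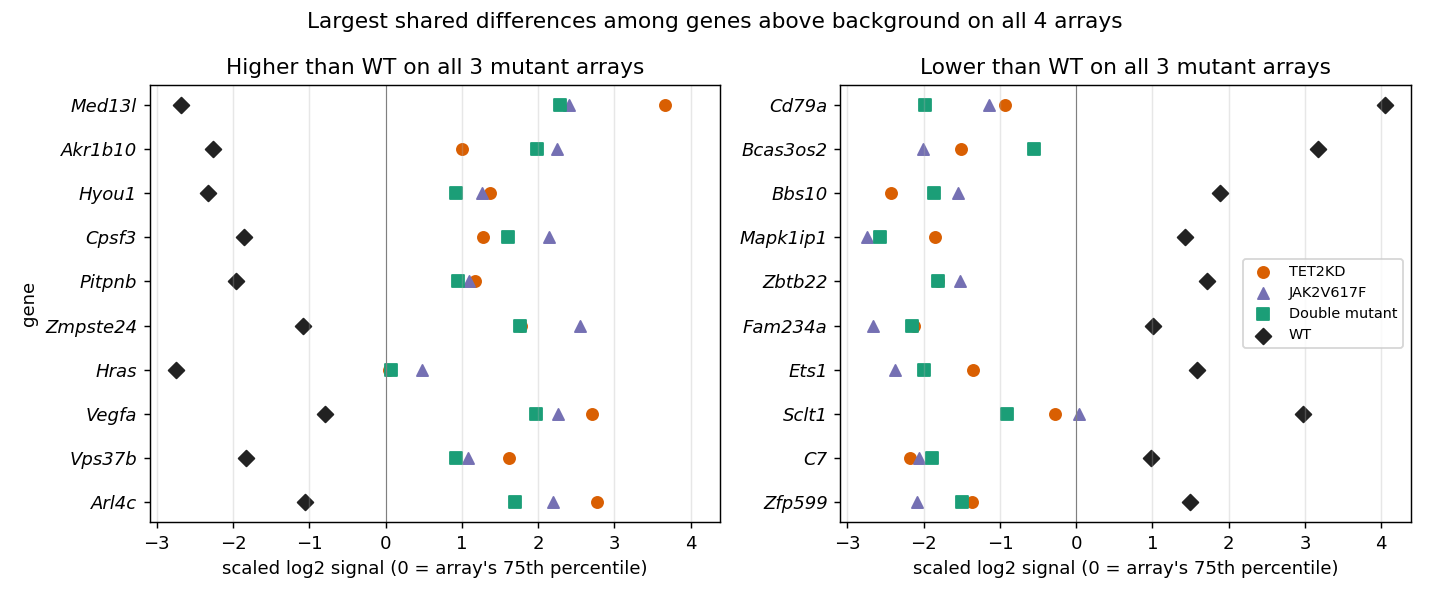
Scaled log2 signal (horizontal axis, 0 is the array's 75th percentile) on the TET2KD, JAK2V617F, Double mutant and WT arrays for the 10 genes with the widest shared difference higher (left) and lower (right) than WT, among genes above background on all 4 arrays. The WT point lies apart from all 3 mutant points for each gene, as the choice of genes requires, from Med13l at -2.69 in WT to Cd79a at 4.04 in WT.

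Some genes gave the same call on distant probes. Distance between probes was taken from their lowest coordinates. Of 2836 genes with tested probes at least 500 bases apart, 21 had a pair of such probes that were both shared higher and 30 a pair both shared lower. Over all probes, 4.34% were shared higher and 7.59% shared lower. In the distant pairs described earlier, the other probe was shared the opposite way in 5 cases for each direction. It was shared the same way in 5 for higher and 4 for lower. The genes below were picked for agreement, which is therefore no check on them. Besides Cmpk2, Vegfa and Mad2l1, the genes with agreeing probes and the widest differences higher were Gtf2a1, a subunit of the general factor TFIIA, Nsmce2, a SUMO ligase of the SMC5/6 complex, Safb2, Nqo2, Acsl1, Trappc1 and Nupl1. With normexp background correction Nqo2 and Trappc1 fell under 2-fold, with smallest log2 differences of 0.66 and 0.85. Gtf2a1 had 1.10 in TET2KD, 0.97 in JAK2V617F and 1.36 in Double mutant, against -1.59 in WT, and Nsmce2 had 0.02, 0.08 and 0.15, against -2.43 in WT. Acsl1, a fatty acid activating enzyme, had 1.72, 1.27 and 0.66, against -1.20 in WT. For Gtf2a1, Nsmce2 and Acsl1 the WT mean includes a probe that did not clear the background. WT was the lowest array in each, as a shared call requires.

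Lower on distant probes were Pde1c, Pcgf3, Naip1, Cfap410, Aven, Ly9, Syngr4, Arpp21, Xist and Med12. With normexp background correction Pcgf3, Naip1, Arpp21 and Med12 fell under 2-fold, with smallest log2 differences of -0.78, -0.85, -0.85 and -0.95. Pcgf3 and Naip1 were also not well above background in any mutant. Pde1c, a phosphodiesterase, had -2.24, -2.53 and -2.56 in TET2KD, JAK2V617F and Double mutant, against 0.76 in WT. Ly9, a SLAM family receptor of lymphoid and stem cells, had -1.26, -0.76 and -2.26, against 1.16 in WT. Aven, an inhibitor of apoptosis, had -2.27, -0.20 and -1.44, against 1.75 in WT. Med12, a Mediator subunit that partners Med13l, had -0.64, -0.78 and -0.41, against 1.26 in WT. For each of these genes WT was the highest array, as a shared call requires. The means of Pde1c, Ly9, Aven and Med12 include, on at least 1 mutant array, a probe that did not clear the background.

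Other genes were detected on one side only. Not well above background in WT were Lfng, the Fringe enzyme that modifies Notch, higher by at least 60.7-fold in TET2KD, 35.8-fold in JAK2V617F and 28.4-fold in Double mutant, and Tlcd3a and Zw10, besides S1pr3, Tnf and F13a1. Not well above background in any mutant were Sertad3, Tert, the catalytic subunit of telomerase, Pi15, Wdr78, Numbl, a homolog of the Notch antagonist Numb, and Ptpn3. Tert was lower by at least 29.6-fold in TET2KD, 39.7-fold in JAK2V617F and 39.1-fold in Double mutant, against 2.10 in WT. Sertad3 was lower by at least 30.5-fold in each mutant, against 2.14 in WT. All of these rest on 1 tested probe. With normexp background correction the differences were smaller. The smallest log2 difference was then -2.83 for Tert, against -4.89 here, and 1.90 for F13a1, against 3.75 here.

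The shared probes were also described by features that the rule did not use, over probes above background on all 4 arrays. Median GC content of the probe was 45% for shared higher, 43.3% for shared lower and 45% for all. Probes for long intergenic RNAs made up 18.8% of the shared higher, 24.6% of the shared lower and 24.2% of all. Over 4 equal bins of mean level, from dim to bright, 2.28%, 5.79%, 5.05% and 1.99% of probes were shared higher and 5.00%, 5.56%, 4.15% and 0.724% shared lower, so the brightest bin held the fewest shared calls of either kind. The 3 mutants spread over a median range of 0.87 log2 units in shared higher probes and 0.89 in shared lower probes, against 0.81 in all.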

How the data were processed

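Expression was measured on 4 Agilent 1-colour arrays, 1 per genotype, on 1 slide scanned in 1 session. The deposited scanner files hold intensity values from Agilent Feature Extraction 10.7.3.1, per the file headers, corrected for background on each array and not scaled between arrays. In the deposited series matrix the log2 values were those of the processed signal shifted by 1 constant per array: 0 of 55665 probes departed from it by over 0.001. Between 49.4% and 54.7% of spots were well above background and 0 were saturated; the number of arrays limits the precision.

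Here, outlier spots (162 to 199 per array) were dropped, log2 signals were centred on each array's 75th percentile (59305 spots that are not controls), and spots of a probe were averaged. Dim values were then set to the floor (-2.79 in TET2KD, -3.22 in JAK2V617F, -3.19 in Double mutant and -3.01 in WT), and tested probes of a gene were averaged. A RefSeq table of assembly GRCm38 named 28347 probes by accession, 3193 by symbol and 272 by synonym; 23869 stayed unnamed. Some list members and 1 probe sequence are not reported here. The probe sequences come from the deposited array files.

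Genes were named by rule: Tet2 and Jak2, then named genes with every tested probe on the same side of WT and a gene mean at least 2-fold apart. Each way these are the 10 widest above background on all 4 arrays, up to 10 with agreeing probes at least 500 bases apart by lowest coordinate, and up to 6 detected on one side only. The difference also had to reach 2-fold with normexp, except for the genes with agreeing distant probes. List members are named besides. The arrays, the lists and these rules were chosen with earlier results of these data known. A list was called shifted where its median lay at least 0.25 from 0 on the same side in all 3 mutants. The fit used limma 3.58.1 in R 4.3.3 with Benjamini-Hochberg adjustment over all tested probes. The steps were also run on simulated data. With noise as wide as the spread among the mutants, many probes without a planted difference met the rule for a shared call. The rule then recovered only part of the planted differences, and limma few of them. Alternatives were normexp with an offset of 50, quantile, median and cyclic loess scaling, other filters and floors, the matrix values, the brightest probe per gene, other fold limits and leaving out each mutant.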

Additional observations from a re-analysis of the deposited data

How the results depend on the processing

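With 1 array per genotype, the depth of replication limits every value, and list medians combine genes of unequal signal. Against 1298 probes shared higher and 2269 lower, normexp background correction gave 349 and 830, probes above background on all 4 arrays 835 and 852, no filter on dim probes 2356 and 3544, a 3-fold limit 508 and 1010, and a 1.5-fold limit 2524 and 3896. Of the shared probes 36.4% were higher in the setting reported, 29.6% with normexp and 49.5% above background on all 4 arrays. Against 548 genes higher and 971 lower, normexp gave 141 and 309, a 3-fold limit 201 and 388, a 1.5-fold limit 1091 and 1823, no filter 878 higher, and probes above background on all 4 arrays 400 lower. Leaving out 1 mutant array gave 1851 to 2134 probes higher and 3027 to 3581 lower, 782 to 940 genes higher and 1321 to 1564 lower, since fewer arrays had to share a difference.

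The 2 shifted lists, progenitors and the 4 sex-linked genes, became 4 above background on all 4 arrays, 4 with the matrix values, 1 with no filter, and 2 to 9 without 1 mutant. The progenitor list was shifted higher in every setting run. Without 1 mutant, the median of its mean difference ran from 0.57 to 1.37. Without TET2KD the stem cell list was shifted lower and the heat shock and G2 lists higher. The limma count was 0 in every setting, and 51 named genes kept their call without any 1 mutant; over all settings 581 values of named genes stayed at 2-fold or more and 15 did not, and 0 turned direction. That the 51 named genes kept their call without any 1 mutant was fixed by their choice, which required 2-fold in every mutant. It is therefore no check on these genes. Their values with normexp were partly fixed as well, because 2-fold with normexp was required except for the genes with agreeing distant probes. Both are counted among the 581 values. No paired analysis was possible because each genotype has 1 array. The causes were not tested.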
